A study of Rattus norvegicus and Mus musculus with 3 samples.

Results

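The genes of the blood vessel wall were followed in hippocampal RNA: 32 genes of endothelial cells, of their barrier and of mural cells, out of 30438 genes listed in the rat tables and 34714 in the mouse table. They were taken by symbol, ignoring case, and all 32 were listed in all 3 libraries. They fall into 15 endothelial genes, 7 barrier genes and 10 genes of mural cells, the pericytes and smooth muscle cells that wrap the endothelium. There was 1 library each from a 2VO rat and a Sham rat, both labelled WT and 3 to 4 months old, and from a WT mouse of the 3xTg-AD model, 6 months old. The name 2VO commonly stands for occlusion of both common carotid arteries, which lowers blood flow to the brain, and Sham for the operation without occlusion. The 3xTg-AD mouse is a transgenic model of Alzheimer's disease, and the animal profiled here is of its wild-type line. The sources used here do not say whether a library came from 1 animal or from a pool.

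Brain endothelial cells are joined by tight junctions and carry selective transporters, which together form the blood-brain barrier. Pericytes sit on capillaries and smooth muscle cells on arterioles, and both help to set vessel tone and to keep the barrier closed. Vessel cells are a small part of hippocampal tissue.

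The values are normalized expression values per gene in a unit that the sources used here do not state, called units below. They summed to 333941 units in the 2VO rat, 325636 in the Sham rat and 268889 in the WT mouse, and the depth behind them is unknown. Because the tables do not say whether values are per length, levels are compared for the same gene between libraries and not between genes. The list sums, and the rank percentiles used for the mouse, do join different genes and carry this limit. The comparison of 2VO with Sham asks how vessel transcripts differ with the vascular model, and the ratio used is the log2 of 2VO over Sham after adding 1 unit on each side, so differences of low genes come out too small. Genes were compared where the rats averaged 1 unit or more, which kept 13550 genes and 25 of the 32 vessel genes. With 1 library per group there is no test and no replicate error, and each difference describes these 2 rat libraries. In whole tissue, fewer vessel cells and less RNA per vessel cell cannot be told apart. Neurons were plainly present, with 8 pyramidal and granule cell genes summing to 2305 units in the 2VO rat, 2303 in the Sham rat and 1985 in the WT mouse.

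Most vessel genes lay close together in the 2 rats, and Apold1 stood apart, 5.39-fold lower in the 2VO rat as a plain ratio. The folds counted next are on the scale with 1 unit added. Of the 25 vessel genes compared, 0 were at least 1.5-fold higher in the 2VO rat, where 1.51% of all compared genes were. Only Apold1 was at least 1.5-fold lower, where 0.967% of all compared genes were. The vessel genes split into 11 higher and 14 lower, with a median log2 ratio of -0.031, while 58.7% of all compared genes were higher and their median was 0.039. Within 1.3-fold lay 22 of the 25 vessel genes, or 88.0%, against 91.3% of all compared genes. These shares are at unlike levels: 8 of the 25 vessel genes averaged 5 units or more, against 9233 of all 13550. The added unit thus narrows the vessel genes more. As plain ratios Notch3, Vwf and Klf2 also passed 1.3-fold, at 1.41-fold, 1.34-fold and 1.31-fold lower in 2VO. All 32 vessel genes summed to 151.9 units in the 2VO rat and 149.7 in the Sham rat, a ratio of 1.015, and the 31 other than Apold1 to 149.7 units in 2VO and 138.1 in Sham. Such sums are set by the few genes with high values.

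**Figure D1:**
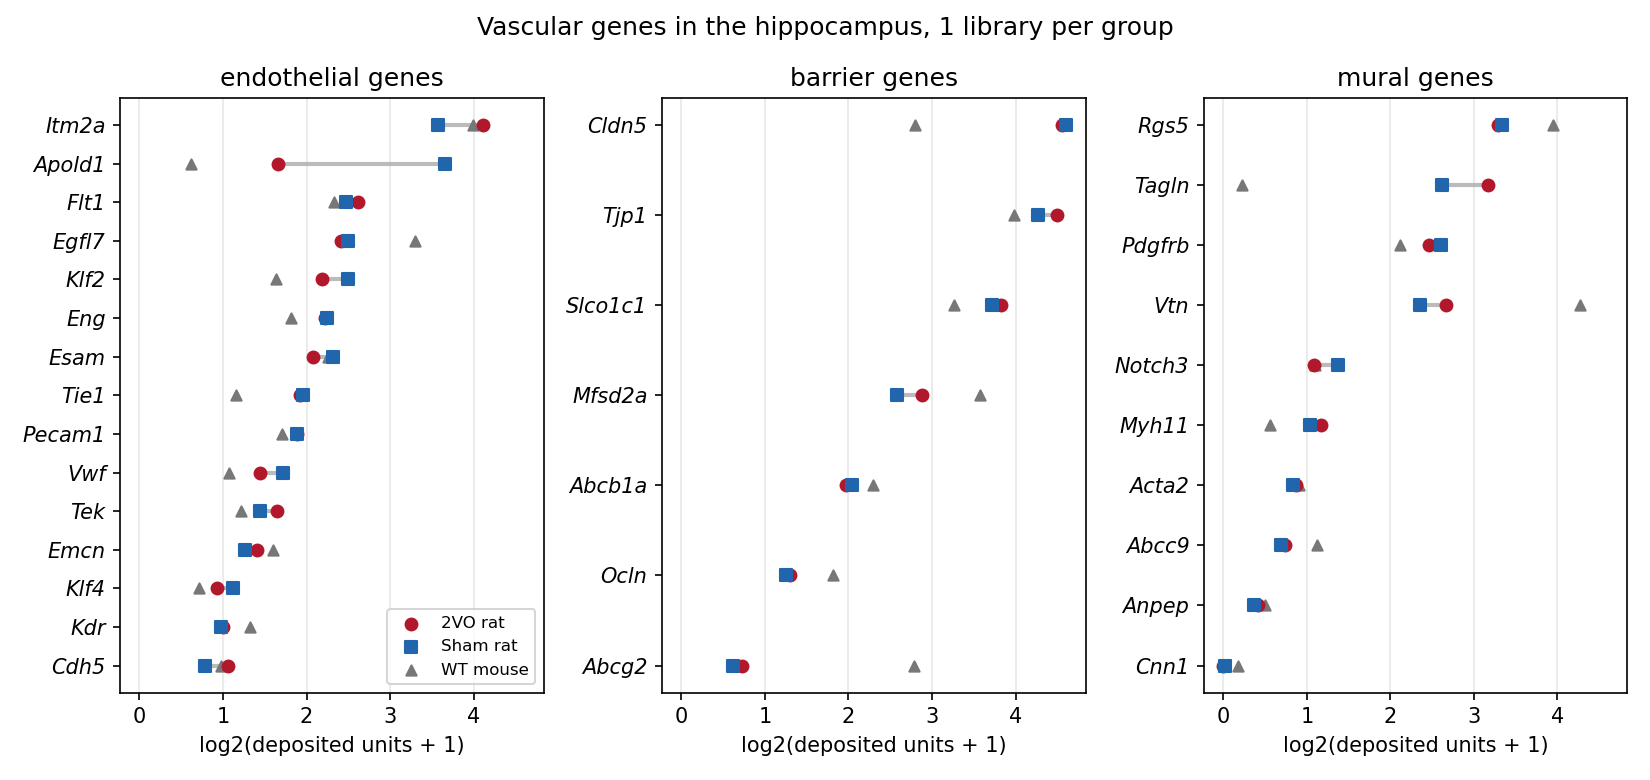
Deposited level of each of the 32 vessel genes, on a log2 scale with 1 unit added, in the 2VO rat (circles), the Sham rat (squares) and the WT mouse (triangles), with a grey line between the rats. The rat points nearly coincide for most genes, and Apold1 has the longest line, with 2.15 units in 2VO against 11.6 in Sham.

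Apold1 encodes a protein of endothelial cells with an apolipoprotein L domain and is an immediate early gene of endothelium, switched on quickly by stimulation. It was 2.15 units in the 2VO rat and 11.6 in the Sham rat, a log2 ratio of -2.00. Its ratio was the 2nd lowest of all 13550 genes compared, and the central 95% of genes at its level, with means of 5 to 10 units, ran from -0.38 to 0.51. The WT mouse had 0.529 units, so the Sham rat was the high library of the 3. On its chromosome the nearest protein-coding genes in the RefSeq rat annotation did not share this difference. Cdkn1b, upstream, was 15.1 units in 2VO and 15.7 in Sham, and Ddx47, downstream, was 21.9 units in 2VO and 23.2 in Sham, both named after their values were seen.

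Immediate early genes were listed to see whether Apold1 moved with them. Of 13 compared, 7 were higher in 2VO and 6 lower, and their median log2 ratio was 0.014 with a mean of -0.010. Egr1 was 33.0 units in 2VO and 19.9 in Sham, and Fos was 6.86 in 2VO and 4.03 in Sham. Btg2, an antiproliferative early gene, went the other way with 6.84 units in 2VO and 12.7 in Sham. Cyr61 was also lower, at 0.759 units in 2VO and 1.61 in Sham, and passed the filter through the Sham rat alone. Its log2 ratio of -0.57 lay below the central range of genes at its level, which began at -0.49. Dusp1 and Zfp36 were lower at -0.31 and -0.35, inside the central range for their levels. Below the filter, Egr2 was higher in 2VO, at 0.794 units against 0.392 in Sham. Atf3 was lower, at 0.269 units in 2VO against 0.858 in Sham. The early genes had no shared direction.

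The rat promoters shown are those of Apold1, which had the lowest ratio, of Itm2a, which had the highest ratio among vessel genes with a listed promoter, and of the VEGF receptor gene Flt1, which held the most kinds of motif. Each is the 250 bases before the listed transcript start, 5′ to 3′ on the gene's strand, from RefSeq on build GRCr8, which is a later build than the mRatBN7.2 of the submitters' notes. Capitals mark TGACGTCA, the cyclic AMP response element, CACCC or its reverse GGGTG, the core bound by KLF factors, and TATAAA, the TATA box, which was added after the sequences were seen. The Apold1 window is chr4:169552349-169552598 on the plus strand, that of Itm2a chrX:76565145-76565394 on the minus strand and that of Flt1 chr12:12333180-12333429 on the plus strand.
Apold1: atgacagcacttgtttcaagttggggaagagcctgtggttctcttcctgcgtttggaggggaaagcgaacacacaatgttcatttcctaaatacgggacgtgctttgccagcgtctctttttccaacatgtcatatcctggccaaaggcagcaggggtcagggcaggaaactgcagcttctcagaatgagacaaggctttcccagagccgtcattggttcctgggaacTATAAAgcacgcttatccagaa
Itm2a: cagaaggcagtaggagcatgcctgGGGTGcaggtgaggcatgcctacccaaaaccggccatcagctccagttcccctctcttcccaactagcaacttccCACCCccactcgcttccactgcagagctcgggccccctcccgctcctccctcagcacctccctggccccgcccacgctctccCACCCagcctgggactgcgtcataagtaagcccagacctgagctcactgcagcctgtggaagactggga
Flt1: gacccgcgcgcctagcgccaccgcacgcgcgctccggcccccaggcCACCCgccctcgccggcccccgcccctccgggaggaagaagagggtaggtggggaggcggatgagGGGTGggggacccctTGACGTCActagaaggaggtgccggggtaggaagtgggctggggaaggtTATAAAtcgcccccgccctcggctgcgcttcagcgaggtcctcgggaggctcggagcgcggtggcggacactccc

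The Apold1 window held TATAAA, starting 22 bases before the transcript start, and none of the other letters. In the Flt1 window TGACGTCA began 124 bases and TATAAA 75 bases before the start, and CACCC stood there once on each strand. Itm2a held CACCC at 3 places, 2 on its own strand and 1 on the other. No base of these windows belonged to more than 1 motif. On either strand TGACGTCA was found in 1.59% of 33365 rat promoter windows of this length, TATAAA in 12.9%, CACCC in 49.2%, the E-box CACGTG in 5.60% and the CArG box, bound by serum response factor, in 1.496%. Promoters were listed for 21 of the 32 vessel genes in 22 windows. TGACGTCA was in those of Flt1 and Abcg2, TATAAA in those of Apold1, Flt1 and Klf4, CACCC in 14 windows, and CACGTG and the CArG box in 0. A match is a description of the letters and says nothing of binding.

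Among the other endothelial genes, the adhesion and surface genes Pecam1, Esam and Emcn were at like levels in both rats. Pecam1, the adhesion molecule CD31, was 2.69 units in both rats and 2.28 in the mouse. Esam, another junctional adhesion molecule, was 3.22 units in 2VO and 3.99 in Sham, with 3.77 in the mouse. Emcn, a sialomucin of capillary and venous endothelium, was 1.66 units in 2VO and 1.41 in Sham, with 2.03 in the mouse. These genes differed by log2 ratios of -0.00043, -0.24 and 0.14, inside the central 95% of genes at their level. Cdh5, the VE-cadherin of endothelial junctions, was 1.08 units in 2VO and 0.719 in Sham, below the filter. With no unit added its ratio was 1.502, taken between low values. Itm2a, a membrane protein enriched in brain endothelium, was 16.3 units in 2VO, 10.9 in Sham and 14.9 in the mouse. Its log2 ratio of 0.54 was the highest of the endothelial genes and lay above the central 95% of genes at its level, which ended at 0.44, but short of 1.5-fold.

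Receptors and secreted factors of endothelium also lay close together. The VEGF receptor genes Flt1 and Kdr were 5.13 and 0.997 units in 2VO, 4.57 and 0.969 in Sham, and 4.03 and 1.49 in the mouse. Tek, the angiopoietin receptor, was 2.14 units in 2VO, 1.73 in Sham and 1.31 in the mouse, and its partner Tie1 was 2.78 in 2VO, 2.87 in Sham and 1.23 in the mouse. Eng, a co-receptor for TGF-beta, was 3.65 units in 2VO, 3.75 in Sham and 2.53 in the mouse. Of these receptors Tek had the log2 ratio furthest from 0, at 0.20. Egfl7, a secreted endothelial factor, was 4.34 units in 2VO, 4.66 in Sham and 8.80 in the mouse. Vwf, the clotting factor stored in endothelium, was 1.72 units in 2VO, 2.30 in Sham and 1.101 in the mouse. Vwf was lower in 2VO with a log2 ratio of -0.28, inside the central 95% for its level.

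The flow-responsive transcription factor genes were both lower in the 2VO rat, short of 1.5-fold. Klf2, which laminar flow induces in endothelium, was 3.55 units in 2VO, 4.66 in Sham and 2.11 in the mouse, a log2 ratio of -0.32. Klf4, its relative, was 0.905 units in 2VO, 1.17 in Sham and 0.633 in the mouse, a log2 ratio of -0.19. Both lay inside the central 95% of genes at their level. Klf4 averaged 1.04 units and passed the filter only through the Sham rat, where it was higher. Its direction is therefore not read as support for that of Klf2. Klf4 is also expressed outside vessels. In the RefSeq rat annotation Klf2 overlaps Eps15l1, Klf4 overlaps a model gene, Egfl7 overlaps Agpat2 and Abcb1a overlaps Rundc3b. Use of strand in counting is not stated, so the values of these 4 vessel genes are uncertain to that extent.

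Over all 13 endothelial genes compared, 4 were higher and 9 lower in 2VO, where 41.3% of all compared genes were lower. The endothelial genes had a median log2 ratio of -0.035, against 0.039 for all compared genes, and a range of -2.00 to 0.54. The 15 endothelial genes summed to 52.4 units in 2VO, 58.0 in Sham and 47.7 in the mouse. The direction of that sum rests on single genes. It was 50.2 units in 2VO and 46.4 in Sham without Apold1, and 33.9 in 2VO and 35.5 in Sham without Apold1 and Itm2a. The median without Apold1 was -0.033. Leaving out 1 extreme gene moves a median only as far as the values next to it, so no conclusion is drawn from this.

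**Figure D2:**
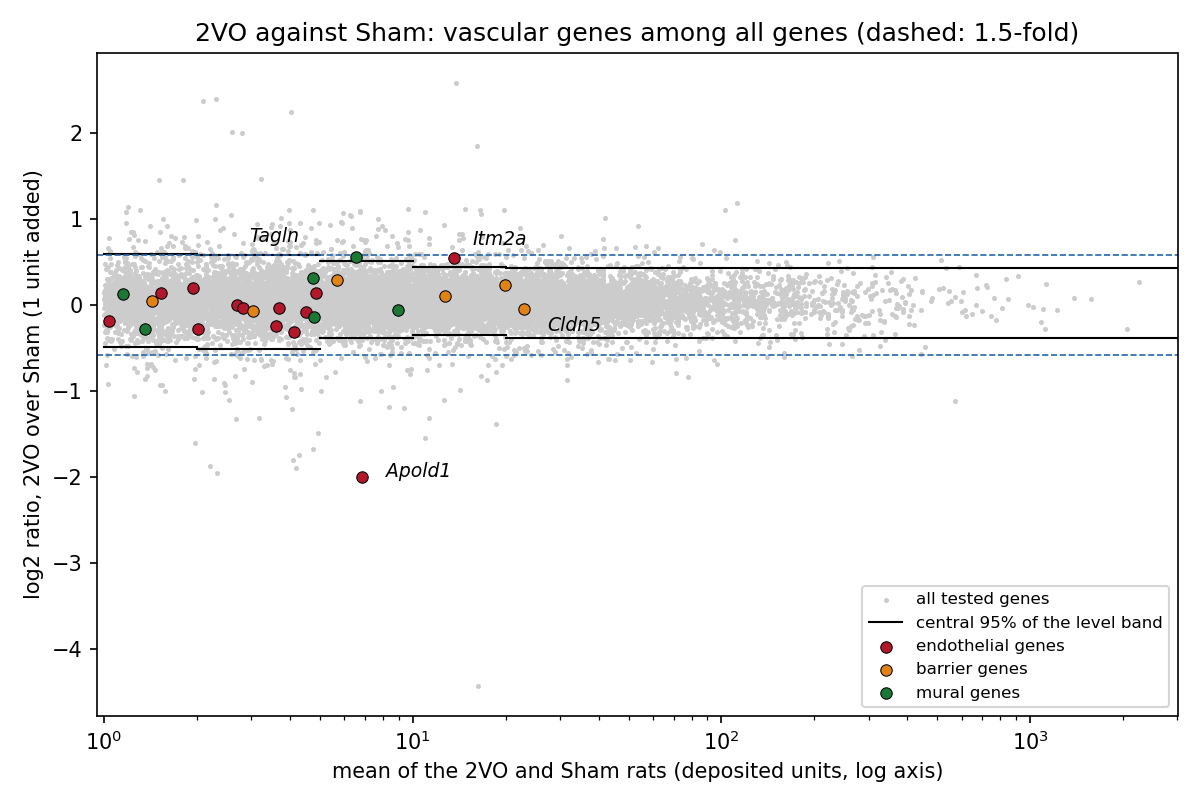
Log2 ratio of 2VO over Sham against the mean level of both rats (log axis) for all 13550 genes compared (grey) and the 25 vessel genes that reached a mean of 1 unit (coloured), with black lines at the central 95% of each level band and dashed lines at 1.5-fold. Apold1 lies far below the band at -2.00, Itm2a and Tagln lie just above it at 0.54 and 0.55, and the other 22 vessel genes lie inside.

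Barrier genes differed little between the rats. Of the 6 compared, 4 were higher and 2 lower, with a median log2 ratio of 0.077 and a range of -0.073 to 0.29. Cldn5, the main claudin of the endothelial tight junction, was 22.5 units in 2VO and 23.4 in Sham. Ocln, the occludin gene, was 1.47 units in 2VO and 1.39 in Sham. Tjp1, the scaffold ZO-1 that many cell types make, was 21.6 units in 2VO and 18.3 in Sham. None of these junction genes differed by as much as 1.3-fold. Mfsd2a, a lysolipid transporter that limits transport by vesicles across brain endothelium, was 6.36 units in 2VO and 5.01 in Sham, the highest barrier ratio with a log2 of 0.29. Slco1c1, a thyroid hormone transporter, was 13.2 units in 2VO and 12.2 in Sham. The efflux pump gene Abcb1a, which encodes P-glycoprotein, was 2.93 units in 2VO and 3.13 in Sham, and Abcg2, another efflux pump, was 0.648 in 2VO and 0.536 in Sham, below the filter. Abcb1a has a close paralog, and no source used here says how reads shared between copies were assigned, so its value is uncertain.

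Further barrier genes were counted from a longer list. Of 15 compared, 12 stood higher and 3 lower in 2VO, where 58.7% of all compared genes were higher. The median was 0.17, against 0.039 for all compared genes. With 1 unit added 0 passed 1.5-fold in either direction, where 1.51% of all compared genes did so higher and 0.967% lower. Bsg, basigin, which other cell types make as well, was 315 units in 2VO and 359 in Sham. With no unit added Marveld2 was 1.78-fold higher in 2VO, at 1.49 units against 0.839 in Sham. It passed the filter through the 2VO rat alone.

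Mural genes were divided. Of the 6 compared, 3 were higher and 3 lower in 2VO, with a median log2 ratio of 0.036, near the 0.039 of all compared genes. Scaling the rats to equal upper quartiles moved both, to -0.0050 for the mural genes and -0.010 for all compared genes. The pericyte genes Pdgfrb, the receptor for PDGF-B, and Rgs5, a regulator of G protein signalling, were 4.51 and 8.76 units in 2VO and 5.09 and 9.13 in Sham. Vtn, which encodes vitronectin, was 5.36 units in 2VO and 4.12 in Sham, a log2 ratio of 0.31. Notch3, the receptor gene of mural cells, was 1.13 units in 2VO and 1.59 in Sham, a log2 ratio of -0.28 and the lowest of the mural genes. Abcc9, a potassium channel subunit of pericytes, was 0.671 units in 2VO and 0.614 in Sham, and Anpep, the aminopeptidase CD13, was 0.337 in 2VO and 0.292 in Sham, both below the filter. The 6 pericyte genes summed to 20.8 units in each rat. Of the 4 compared, Vtn was higher in 2VO and the other 3 lower, with a median log2 ratio of -0.099.

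The smooth muscle genes code for contractile proteins. Tagln, the transgelin gene, was 7.99 units in 2VO and 5.13 in Sham, a log2 ratio of 0.55, above the central 95% for its level, which ended at 0.51. With no unit added its ratio was 1.56. Myh11, smooth muscle myosin, was 1.25 units in 2VO and 1.06 in Sham. Acta2, smooth muscle actin, was 0.829 units in 2VO and 0.777 in Sham, below the filter. Cnn1, calponin, was listed at 0 in 2VO and at 0.0187 in Sham. Of the contractile genes compared, Tagln had the wider gap between the rats. A longer list of mural genes had 3 of 10 higher and 7 lower in 2VO, a median of -0.060 and 0 genes past 1.5-fold. Over all compared genes 41.3% were lower, 0.967% by 1.5-fold or more, and 1.51% were higher by as much. Mcam, a mural adhesion molecule, was 17.4 units in 2VO and 15.2 in Sham.

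Further endothelial genes and the ligands of these receptors were counted from lists in the same way. Of 20 further endothelial genes 19 were listed for the rats and 10 compared, with 5 higher and 5 lower in 2VO and a median of -0.0065. Cd34, a sialomucin of endothelium and of blood progenitors, was the only one past 1.5-fold with 1 unit added. It was 5.803 units in 2VO and 2.17 in Sham, a log2 ratio of 1.101. Cav1 was 8.87 units in 2VO and 5.88 in Sham, a log2 ratio of 0.52. That lay above the central range of genes at its level, which ended at 0.51, but short of 1.5-fold. With no unit added the ratio of Cav1 was 1.507. On that scale Icam2 went the other way, 1.57-fold lower in 2VO, at 0.882 units against 1.38 in Sham. Icam2 passed the filter through the Sham rat alone. The mean of the list was 0.12. Ligand genes had a median of 0.12 over 8 compared, 5 higher and 3 lower, with 0 past 1.5-fold. Over all compared genes 58.7% were higher, 1.51% by 1.5-fold or more, and 0.967% were lower by as much. Vegfa, the ligand of Flt1 and Kdr, was 27.6 units in 2VO and 27.8 in Sham.

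Genes of cells that border vessels included some with wide gaps between the rats. Choroid plexus genes, of an epithelium over fenestrated vessels, summed to 6.99 units in 2VO, 1.75 in Sham and 24.1 in the mouse. Only 2 of their 8 genes were compared, and Ttr, transthyretin, was 4.75 units in 2VO and 0.434 in Sham. Most of the 2VO sum was thus Ttr. At lower values, Folr1, Clic6 and Otx2 were also higher in 2VO, while Kcnj13, Kl, Aqp1 and Sostdc1 were lower. Perivascular fibroblast genes had 4 of 6 compared genes higher in 2VO; their median was 0.13 and their mean -0.13. In that list Col6a1, a collagen chain, was 5.07 units in 2VO and 16.8 in Sham, a log2 ratio of -1.55. The 10 genes summed to 27.9 units in 2VO, 35.8 in Sham and 60.8 in the mouse. The gap of Col6a1 between the rats was wider than that of the sums, so the direction of the sum rests on this gene. Dcn went the other way, with 6.51 units in 2VO and 4.23 in Sham. Its log2 ratio of 0.52 lay above the central range of genes at its level, which ended at 0.51. The part of these bordering cells in the vessel values was not tested.

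Of 8 astrocyte endfoot and astrocyte genes 3 were higher in 2VO and 5 lower, with a median of -0.034. Gfap, the astrocyte filament gene, was the only one past 1.5-fold, at 360 units in 2VO and 778 in Sham. The 8 blood cell genes summed to 269 units in 2VO and 291 in Sham, and 4 of them were compared, 1 higher and 3 lower. The 6 with a value in the mouse as well summed to 9.48 units in 2VO, 15.7 in Sham and 59.6 in the mouse. Most of the mouse sum was the globin gene Hba-a1, at 58.1 units, against 6.42 in 2VO and 6.25 in Sham. The globin genes Hba1 and Hbb, at 153 and 107 units in 2VO and 168 and 107 in Sham, had no mouse value. These sums therefore do not compare blood content between the species. Among the 6, Cd3e, a T cell receptor component, was 1.199 units in 2VO and 7.15 in Sham. Microglial genes had a median of -0.24 over 8 genes, 2 of them higher in 2VO and 6 lower. Aif1 was 13.5 units in 2VO and 23.8 in Sham, C1qa was 25.6 in 2VO and 39.3 in Sham, and P2ry12 was 8.83 in 2VO and 5.49 in Sham. Among the neuronal genes Wfs1 was 111 units in 2VO and 169 in Sham. Whether any of these differences bears on Apold1 was not tested.

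**Figure D3:**
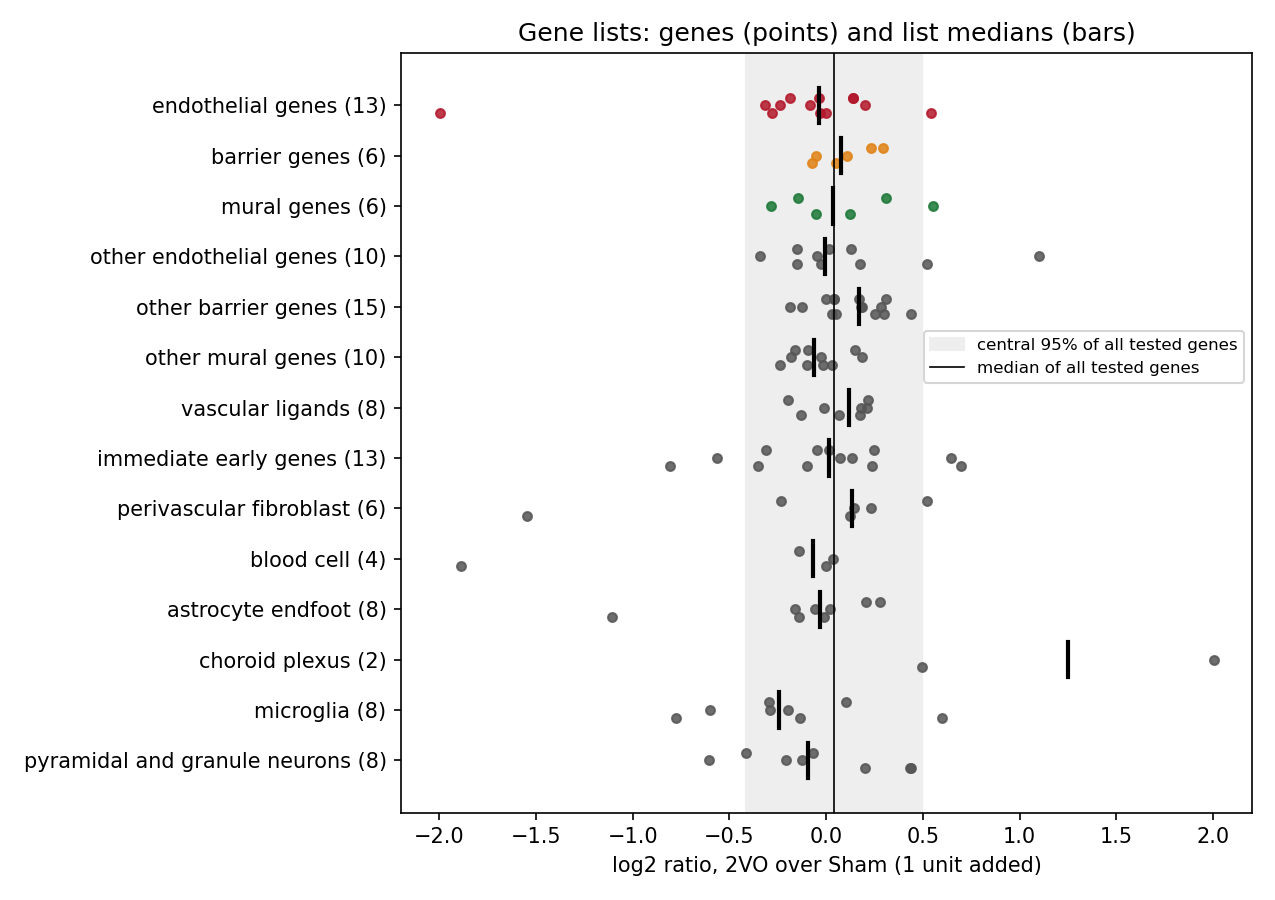
Log2 ratio of 2VO over Sham for the compared genes of each list (points), with the list median (bar), the median of all compared genes (line) and their central 95% (grey); the number of genes compared is in parentheses. The medians of the endothelial, barrier and mural genes lie at -0.035, 0.077 and 0.036, close to the median of all genes at 0.039, and Apold1 is the single vessel point at -2.00.

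The WT mouse was set beside the rats by rank, as the percentile of each gene among the genes listed above 0 in its own library. The whole set ranked alike, with a median percentile of 49.1 in the 2VO rat, 51.6 in the Sham rat and 53.9 in the mouse. For 15 of the 25 vessel genes compared, or 60.0%, the mouse percentile was above both rats, where it was for 58.9% of 11338 shared symbols that passed the same filter. It was below both rats for 7, or 28.0%, against 31.7%. Both shares were near those of other genes that passed the filter. The filter uses rat values only, so it leaves out genes that are low in the rats. Over all 32 vessel genes the mouse was above both rats for 22, below both for 7 and between them for 3. No matching share of all genes was taken without the filter.

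Single genes differed widely. Tagln ranked at percentile 66.1 in 2VO and 59.4 in Sham and at 29.7 in the mouse, where it was 0.169 units. Cldn5 ranked at 84.9 in 2VO, 86.1 in Sham and 66.5 in the mouse, where it was 5.97 units. Apold1 ranked at 46.2 in 2VO, 74.0 in Sham and 40.7 in the mouse. The other direction was seen for Abcg2, at percentile 33.9 in 2VO, 33.8 in Sham and 66.3 in the mouse, where it was 5.87 units. Vtn ranked at 58.8 in 2VO, 56.0 in Sham and 85.5 in the mouse, where it was 18.3 units. The central 95% of shared genes that passed the filter ran from -17.0 to 19.97 percentile points, taken as the mouse minus the mean of the rats. Tagln, Apold1, Cldn5, Abcg2 and Vtn lay outside it. For Apold1 this came from the Sham rat, as the 2VO percentile of 46.2 lay closer to the mouse. Cnn1 also lay outside it, at 0.129 units in the mouse and with its 2VO percentile taken as 0. Cnn1 and Abcg2 were below the filter in the rats. A difference of this kind joins species, strain, age, annotation and library, and these cannot be told apart.

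Other barrier and mural genes of the mouse are given by their levels. Mfsd2a was 10.9 units, Slco1c1 8.57, Tjp1 14.8, Abcb1a 3.91 and Ocln 2.51. Rgs5 was 14.4 units, Pdgfrb 3.33, Abcc9 1.18, Notch3 1.13 and Anpep 0.408. Acta2 and Myh11 were 0.877 and 0.477 units and Cdh5 was 0.969. Among these genes Mfsd2a stood furthest from the mean of the rats, 16.4 percentile points higher in the mouse.

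**Figure D4:**
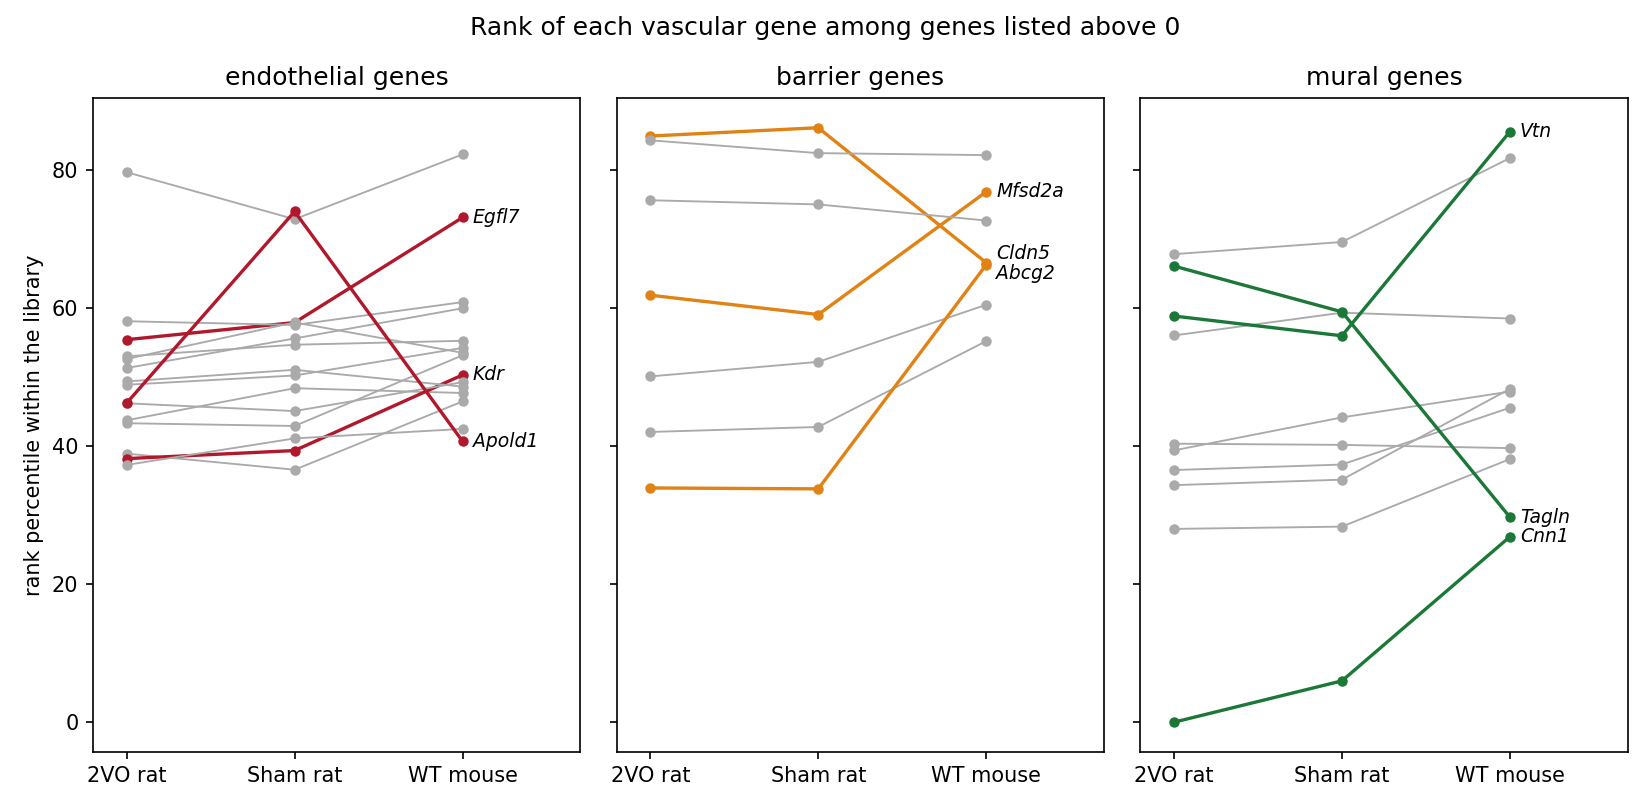
Rank percentile of each vessel gene among the genes listed above 0 in the 2VO rat, the Sham rat and the WT mouse, with the 3 genes of each group whose mouse percentile was furthest from the rats' mean, and Apold1, in colour; Cnn1 is drawn at 0 in the 2VO rat, where it is listed at 0. Between the rats the line of Apold1 runs at 46.2 in 2VO and 74.0 in Sham, the others differ by up to 6.81 points, while Tagln and Cldn5 are low and Abcg2 and Vtn high in the mouse.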

How the data were processed

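Total RNA of hippocampus was made into libraries with the TruSeq RNA kit, per the labels' protocols. Each deposited table holds a normalized expression signal per gene in a unit not stated; the columns carry the group names, per the file headers. Per the submitters' processing notes the tools were fastp 0.21.0, DESeq2 and HISAT2 2.1.0, and the genomes mRatBN7.2 and GRCm39, with no roles given; no source used here names the quantifier, annotation or filters. No step can therefore be checked for its effect on single genes.

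The rat values were compared as deposited, as log2 ratios with 1 unit added, where the mean of the rats was 1 unit or more. The 1 library in each group allows no test. Level bands were bounded at means of 1, 2, 5, 10 and 20 units. All vessel genes are named. Of other lists, genes past 1.5-fold are named and otherwise the one with the highest listed value. A few more are named after their values were seen. They bear on a sum or direction, lay outside their level band or passed 1.5-fold as a plain ratio. Alternatives were 2 scalings, 0.25 or 4 units added, no filter and a mean of at least 5 units; a plain ratio and the endothelial median without Apold1 were added after seeing the data. The genes, lists and motifs were chosen with earlier results of these data known. The calculation was tested on simulated data. Calculations used pandas 2.3.3 and numpy 2.4.6 and figures matplotlib 3.10.9, under Python 3.11.15.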

Additional observations from a re-analysis of the deposited data

How the results depend on the processing

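Apold1 was lower in the 2VO rat in every setting run, with log2 ratios of -2.30 with 0.25 units added, -1.34 with 4 units added and -2.43 as a plain ratio. It was the 1 vessel gene at least 1.5-fold lower in all of them. The number at least 1.5-fold higher was 1, Tagln, with 0.25 units added and in the plain ratio, and 0 otherwise. Over genes averaging 5 units or more the endothelial and mural medians became -0.73 and 0.25, over 2 genes each. The endothelial pair was Apold1 and Itm2a, at -2.00 and 0.54, and Apold1 reached 5 units through the Sham rat alone. The barrier median ran from 0.035 to 0.17. Under upper-quartile scaling the mural median was -0.0050 and that of all compared genes -0.010, and of all compared genes 156 were at least 1.5-fold higher and 165 lower, a share of 48.6% higher against 61.0% as deposited. Counts of all genes past 1.5-fold also moved with the value added, to 342 higher and 215 lower with 0.25 units and 70 and 50 with 4 units, against 205 and 131, with 416 and 258 in the plain ratio and 97 and 59 among genes averaging 5 units or more. No paired analysis was possible because each group holds 1 library. Unknown depth and the lack of replicates limit every value here, most of all the 7 vessel genes below a mean of 1 unit.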

Other observations

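A pair of arterial endothelial genes under the filter are given here, chosen after their values were seen. Sox17, a transcription factor of arterial endothelium, was 1.05 units in the 2VO rat, 0.633 in the Sham rat and 1.02 in the WT mouse. Dll4, the Notch ligand of arterial and tip cells, was 0.359 units in the 2VO rat, 0.795 in the Sham rat and 0.445 in the WT mouse. Values this low carry an unknown counting error, and no difference is read from them.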
